A study of Mus musculus with 12 samples.

Results

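The genes described here act in mitosis, from the kinases and cyclins that start it to the proteins that separate the daughter cells. They were taken from a list of 50 G2 and M phase genes by Ensembl ID, out of 39179 gene IDs counted in each library. All 50 had a row in the count files and passed the filter on low counts, which 12189 genes passed in all. They form 8 roles: 9 kinases, cyclins and regulators of mitotic entry, 7 genes of chromosome structure, 7 of the centromere and kinetochore and 3 of the chromosomal passenger complex. The others are 4 genes of the spindle checkpoint, 7 spindle motors and binders, 4 genes of anaphase and mitotic exit, and 9 of the central spindle and cytokinesis.

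The study measured poly-A RNA of cultured mouse CD4 T cells from OT-II animals (C57BL/6 x OT-II), whose transgenic T cell receptor recognises an ovalbumin peptide. Naive CD4 T cells of lymph nodes and spleen from OT-II mice (WT) and from OT-II mice without NKG2D, the activating receptor encoded by Klrk1 (OT-II x NKG2D-/-, KO), shared cultures that held antigen-presenting cells, OVA323-339 (that peptide) and anti-CD28 antibody. The Th1 cultures received IL-2, IL-12 and an antibody to IL-4. The Th17 cultures received IL-1b, IL-6, IL-23 and antibodies to IFNg and IL-4, with IL-12 added after the second stimulation. Cells were polarised on days 0 and 5, harvested on day 8 and sorted into 4 groups of 3 samples each. Th1 WT and Th17 WT cells were sorted as Thy1.2+ and NKG2D+, whereas Th1 KO and Th17 KO cells were sorted as Thy1.1+ with no NKG2D gate. Genotype, NKG2D gate and Thy1 allele therefore cannot be told apart in any difference between KO and WT. All 4 groups carry the OT-II receptor and were stimulated again on day 5.

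As background, cells that pass from DNA replication into division switch on a set of genes late in the cycle, and the RNA of these genes falls again after division. Cyclins A and B with the kinase Cdk1 start mitosis, condensins and topoisomerase II compact and untangle the chromosomes, kinetochores attach them to spindle microtubules, and the anaphase-promoting complex ends the phase by marking cyclin B and securin for destruction. In T cells, stimulation through the receptor and growth factors such as IL-2 drive rapid division, and RNA of this set is widely read as a sign of cycling cells.

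Total counts were 9108203 to 12688637 in the Th1 libraries. In Th17, 3 libraries were shallow (WT 2 at 2731909, WT 3 at 1647232 and KO 2 at 1722228 counts). A single ID without a name in the annotation used here took 18.3%, 48.1% and 51% of their counts, against at most 0.00831% elsewhere. Results on Th17 are therefore also given without these 3 libraries, which leaves 1 WT and 2 KO libraries, the lone WT library being assumed to vary like the other groups. Mitochondrially encoded genes took 14.2% to 15.1% of counts in Th1. In Th17 they took 16.9% to 18.6% in the WT libraries and 19% to 20.8% in the KO libraries. Klrk1 was at 128 to 161 CPM (counts per 1000000 after TMM normalisation) in the 6 WT libraries and at 1.6 to 5.63 CPM in the 6 KO libraries. The T cell markers Cd3e and Cd4 were at 98 to 140 and 380 to 717 CPM, Il23r was higher in every Th17 than in every Th1 library, and Ifng was lower. The Th17 cytokine Il17a was at 0 in all Th1 libraries and at only 0 to 8.49 CPM in Th17, and the Th1 marker Cxcr3 was higher in the Th17 cultures. The 4 NK cell and 4 erythroid markers summed to at most 0.42 and 0.363 CPM, with Ncr1 at 0 in every library. The 5 B cell markers summed to 0.208 to 0.969 CPM in Th1, 0.763, 1.58 and 1.04 in Th17 WT and 2.57, 2.1 and 4.79 in Th17 KO, higher in every KO than in every WT library there, and none of the 5 passed the filter on low counts. A set of 7 myeloid and dendritic markers summed to 4.51 to 10.5 CPM. Whether samples of a group came from separate cultures or animals is not given, and p-values therefore cover the spread among these libraries alone, which may be technical.

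The mitosis and spindle genes were highest in Th1 WT and lowest in Th17 KO. Their summed level was 10911, 11667 and 11388 CPM in Th1 WT, 9691, 9895 and 9875 CPM in Th1 KO, 7213, 7484 and 7915 CPM in Th17 WT and 6108, 6461 and 6662 CPM in Th17 KO. These sums did not overlap between any of the 4 groups. The mean was 11322 ± 382 CPM (SD, n = 3) in Th1 WT and 9821 ± 113 in Th1 KO, which is 86.7% of it. In Th17 it was 7537 ± 354 (SD, n = 3) in WT and 6410 ± 281 in KO, which is 85% of it. Th17 WT stood at 66.6% of Th1 WT and Th17 KO at 65.3% of Th1 KO. In these bulk samples, fewer cycling cells and less of this RNA per cycling cell cannot be told apart.

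The pattern held for nearly every gene taken alone. The group mean was highest in Th1 WT for 49 of the 50 genes and lowest in Th17 KO for 47. The exceptions at the top and bottom were Pttg1, which encodes securin and was highest in Th17 KO and lowest in Th1 WT, and Ncapg and Ttk, which were lowest in Th17 WT. On the scale of mean CPM per kilobase of exon, which allows levels of different genes to be compared, the most abundant members in Th1 WT were Top2a at 197, Mki67 at 152, Smc4 at 108, Ccna2 at 102 and Ccnb2 at 94. The same 5 genes led in Th17 KO, at 110, 88.6, 64.9, 47.8 and 53.9 CPM per kilobase. The least abundant in Th1 WT were Cdc25c at 4.15 and Pttg1 at 4.47 CPM per kilobase. In the shallow libraries the lowest member count was 9 to 34, so the values of Pttg1 and Cdc25c in Th17 are the least precise.

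**Figure D1:**
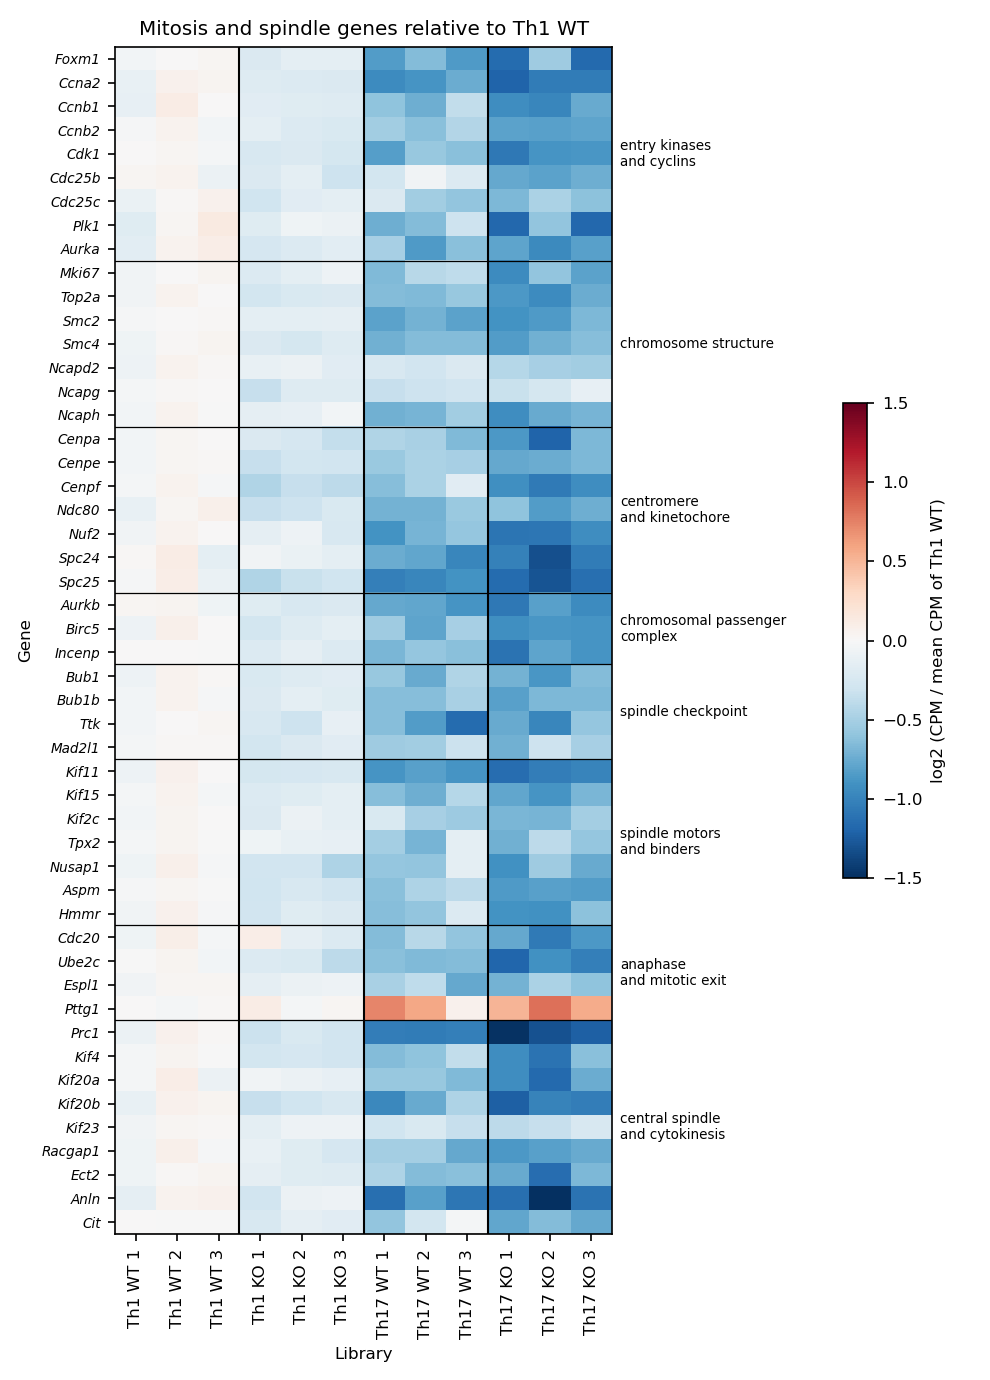
Level of each of the 50 genes (rows, grouped by role) in each of the 12 libraries (columns) as log2 of its CPM over the mean CPM of Th1 WT. Blue rows deepen from Th1 WT to Th17 KO, where 47 genes have their lowest group mean, and the single red row is Pttg1.

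Promoters are shown because many of these genes share a sequence near the start site. The cell cycle homology region (CHR), here TTTGAA or TTCGAA on either strand, and the CCAAT box, here CCAAT on either strand, are the elements through which the DREAM and MuvB complexes and the factor NF-Y are known to act on late cell cycle genes. The 5 printed members are those with the smallest p for KO against WT in Th1 that hold a CHR in the 150 bases before the start, written 5′ to 3′ on the strand of the gene, from RefSeq on GRCm38.p6. Capitals mark CHR (TTTGAA, its reverse complement TTCAAA, or TTCGAA) and CCAAT (or its reverse complement ATTGG).
Prc1: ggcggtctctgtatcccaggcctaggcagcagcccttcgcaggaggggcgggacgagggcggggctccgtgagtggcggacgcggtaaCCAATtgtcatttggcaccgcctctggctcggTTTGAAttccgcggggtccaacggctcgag
Kif11: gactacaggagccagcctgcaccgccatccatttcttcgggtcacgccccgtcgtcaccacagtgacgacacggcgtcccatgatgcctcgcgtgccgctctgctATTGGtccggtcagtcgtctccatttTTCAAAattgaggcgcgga
Ube2c: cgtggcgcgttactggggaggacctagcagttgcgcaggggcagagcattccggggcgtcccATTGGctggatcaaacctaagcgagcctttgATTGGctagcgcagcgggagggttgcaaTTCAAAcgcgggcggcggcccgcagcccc
Top2a: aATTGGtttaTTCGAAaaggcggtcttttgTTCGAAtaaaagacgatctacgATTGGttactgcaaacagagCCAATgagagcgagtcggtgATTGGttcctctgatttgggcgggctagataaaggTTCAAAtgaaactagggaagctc
Ncapg: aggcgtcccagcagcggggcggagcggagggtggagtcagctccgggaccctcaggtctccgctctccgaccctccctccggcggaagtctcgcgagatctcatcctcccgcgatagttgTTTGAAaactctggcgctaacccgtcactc
The stretches lie at Prc1 chr7:80294326-80294475 on the plus strand, Kif11 chr19:37376232-37376381 on the plus strand, Ube2c chr2:164769779-164769928 on the plus strand, Top2a chr11:99024190-99024339 on the minus strand and Ncapg chr5:45669775-45669924 on the plus strand. Counted from the start at the right-hand end, the CHR nearest to it begins at position -30 in Prc1, -19 in Kif11, -29 in Ube2c, -23 in Top2a and -30 in Ncapg. Top2a holds 3 CHR matches and 4 CCAAT boxes in this stretch, Ube2c holds 2 CCAAT boxes, Prc1 and Kif11 hold 1 each, and Ncapg holds 0.

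Of the 50 members, 41 had a promoter in the RefSeq table, which spans 250 bases before to 50 after the start (Foxm1, Ccna2, Cdc25c, Smc4, Spc24, Aurkb, Incenp, Tpx2 and Kif20a had no entry). A CHR lay in that window for 32 of the 41 genes (78.0%), against 21.7% of 27025 genes with a promoter in the table, 62.0% of 50 other mitosis genes and 18.9% of 37 DNA replication genes. Within 50 bases of the start the shares were 70.7% of the members, 44.0% of the other mitosis genes, 5.41% of the DNA replication genes and 6.12% of all. For CCAAT the shares were 70.7% of the members, 68.0% of the other mitosis genes, 64.9% of the DNA replication genes and 41.1% of all. CHR and CCAAT stood together in 65.9% of the member promoters and in 8.61% of all. In only the 100 bases before the start, a CHR was found in 24.4% of the members and 7.18% of all. The 9 members with a promoter and no CHR were Birc5, Ccnb1, Cenpe, Cit, Mad2l1, Ncaph, Nuf2, Nusap1 and Pttg1. Their median log2 fold change for KO against WT in Th1 was -0.18, with 2 of the 9 past the threshold. For the 32 members with a CHR it was -0.21, with 14 past it. In Th17 the medians were -0.22 with 3 of the 9 and -0.24 with 13 of the 32. For Th17 WT against Th1 WT, 9 of 9 and 32 of 32 passed. The 9 members without a promoter entry were at -0.18 with 2 calls in Th1 and -0.27 with 2 in Th17. A match is a description of the letters and does not show that a factor binds.

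**Figure D2:**
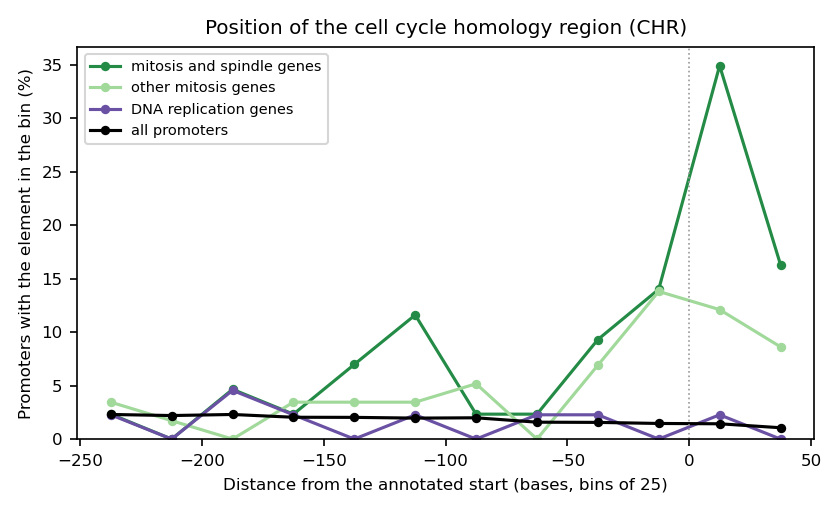
Share of promoters (percent) that hold a CHR in each bin of 25 bases, by distance from the annotated start, for member, other mitosis, DNA replication and all promoters. The peak for the members is the bin of 25 bases just after the start, with 34.9% of the 43 promoters listed for 41 members against 1.43% of all.

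The question of whether NKG2D-deficient cells differ from NKG2D+ WT cells was answered within each culture with edgeR's quasi-likelihood F-test over all 12189 genes (Benjamini-Hochberg adjusted p under 0.05; log2 fold changes are KO minus WT, ± SE). In Th1, 18 of the 50 members were lower in KO and 0 were higher, where 2.92% of all genes were called lower, 1.69% higher and 4.61% in either direction. The log2 fold change was below 0 for 49 of 50, with a median of -0.20 beside 0 over all genes tested. In 43 of 50 members every KO library was below every WT library, against 13.4% of all genes, and in 0 above, against 11.1%. The smallest adjusted p were those of Cenpe (-0.30 ± 0.06, adjusted p = 0.00126), Cenpf (-0.39 ± 0.07, adjusted p = 0.00126), Spc25 (-0.36 ± 0.07, adjusted p = 0.00137) and Aspm (-0.28 ± 0.06, adjusted p = 0.0047). The number of calls moved with single libraries while the direction did not. For example, 14 members were called without Th1 WT 1, 6 without KO 1, 5 without WT 2, 7 without KO 2, 10 without WT 3 and 10 without KO 3, with 49 of 50 below 0 each time. DESeq2 called 11 and limma-voom 33. With library totals in place of TMM, 9 members were lower and 0 higher, while the calls over all genes went from 206 higher and 356 lower to 289 higher and 246 lower.

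In Th17, 18 of the 50 members were again lower in KO and 0 higher, where 4.02% of all genes were called lower, 1.81% higher and 5.83% in either direction. The log2 fold change was below 0 for 47 members, with a median of -0.24 beside 0 over all genes tested. In 25 members every KO library was below every WT library, against 9.59% of all genes, and in 0 above, against 8.94%. Leading calls were Cdc25b (-0.57 ± 0.08, adjusted p = 4.43e-05), Cenpf (-0.48 ± 0.08, adjusted p = 0.000546), Ube2c (-0.43 ± 0.08, adjusted p = 0.000852) and Aspm (-0.32 ± 0.07, adjusted p = 0.00413). Without the 3 shallow libraries 7 members were called lower, 46 were below 0 and the median was -0.18. Without single Th17 libraries the count was 12 (WT 1), 5 (KO 1), 8 (WT 2), 15 (KO 2), 9 (WT 3) and 13 (KO 3), and DESeq2 called 12 and limma-voom 8. The mitochondrial share was higher in every Th17 KO than in every Th17 WT library (19% to 20.8% against 16.9% to 18.6%), and its part in the result was not tested.

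Some markers of the T cells themselves also differed between genotypes. The 7 T cell markers summed to 3300, 3360 and 3260 CPM in Th1 WT and 3060, 2980 and 3010 in Th1 KO. Their Th17 sums were 3320, 3780 and 3710 CPM for WT and 3000, 3290 and 3260 for KO, so the KO sums were below WT in both cultures. Single markers were mixed in Th1, with 4 of the 7 below 0 and 3 above (median -0.03). In Th17, 7 of 7 were below 0 (median -0.14). Over all genes, 2.92% were called lower and 1.69% higher in Th1 KO, and 4.02% and 1.81% in Th17 KO. In Th1, 1 of the 7 was called lower, Ptprc, which encodes CD45 (-0.28 ± 0.07, adjusted p = 0.0206; lost without Th1 WT 1, WT 2, KO 2 or KO 3, up to 0.133). In Th17, 2 of the 7 were called lower, Lck (-0.23 ± 0.06, adjusted p = 0.0286) and Cd4 (-0.23 ± 0.07, adjusted p = 0.0327), lost without 5 and 6 single libraries (up to 0.112 and 0.198). Averaged over both cultures, Ptprc (-0.25 ± 0.05), Lck (-0.15 ± 0.04) and Cd4 (-0.16 ± 0.05) were called lower, with a median of -0.09 over the 7. Of the 7, 5 were below 0 and 2 above, and 6.64% of all genes were called lower. Of 4 Th1 markers, 0 were called in Th1 KO and 2 were lower in Th17 KO, the cytokine gene Ifng (-1.66 ± 0.24, adjusted p = 0.00566) and the IL-12 receptor gene Il12rb2 (-0.28 ± 0.06, adjusted p = 0.00758; lost without Th17 KO 3, 0.0724). The Th17 cytokine genes Il17f (1.98 ± 0.27, adjusted p = 2.41e-05) and Il17a (2.12 ± 0.41, adjusted p = 0.00504) and the receptor gene Il23r (0.75 ± 0.12, adjusted p = 0.000145) were higher in Th17 KO, each at a higher CPM in every KO than in every WT library. The part of these marker differences, and of the B cell markers, in the members' result was not tested.

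The Th1 and Th17 comparisons share no samples, but they were fitted together with a shared estimate of spread. Their calls are therefore not fully independent. Of the members, 9 were called in both (Cdk1, Cdc25b, Top2a, Cenpa, Cenpe, Cenpf, Aspm, Ube2c and Prc1), 9 in Th1 alone, 9 in Th17 alone and 23 in neither. So 50% of each list was shared, and 46 of 50 were below 0 in both. The matching shares over all genes tested were not worked out, so this overlap has no background to be read against. Averaged over both cultures, 35 of 50 were lower in KO and 0 higher (6.64% of all genes were called lower, 3.19% higher and 9.83% in either direction), 50 of 50 were below 0 and the median was -0.22. Calls of the averaged difference that held in all 21 alternatives were those of Ccna2, Cdc25b, Mki67, Top2a, Ncapd2, Cenpa, Cenpe, Cenpf, Birc5, Kif11, Nusap1, Aspm, Ube2c, Prc1 and Kif20b, 15 in all. The test of whether the genotype difference itself differed between Th17 and Th1 called 0 of 50 members (0.591% of all genes were called, 0.476% lower and 0.115% higher), with 4 at an unadjusted p under 0.05 and 0 called by DESeq2 or limma-voom. Its smallest p belonged to Ncapg (0.33 ± 0.10, adjusted p = 0.121), Cdc25b (-0.35 ± 0.10, adjusted p = 0.148) and Ndc80 (0.29 ± 0.11, adjusted p = 0.289). Without Th17 KO 1, 1 member, Ncapg, was called (adjusted p = 0.0436, within a range of 0.033 to 0.566 over the alternatives of Ncapg). Ncapg was also called in a paired fit that was added after seeing the data.

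**Figure D3:**
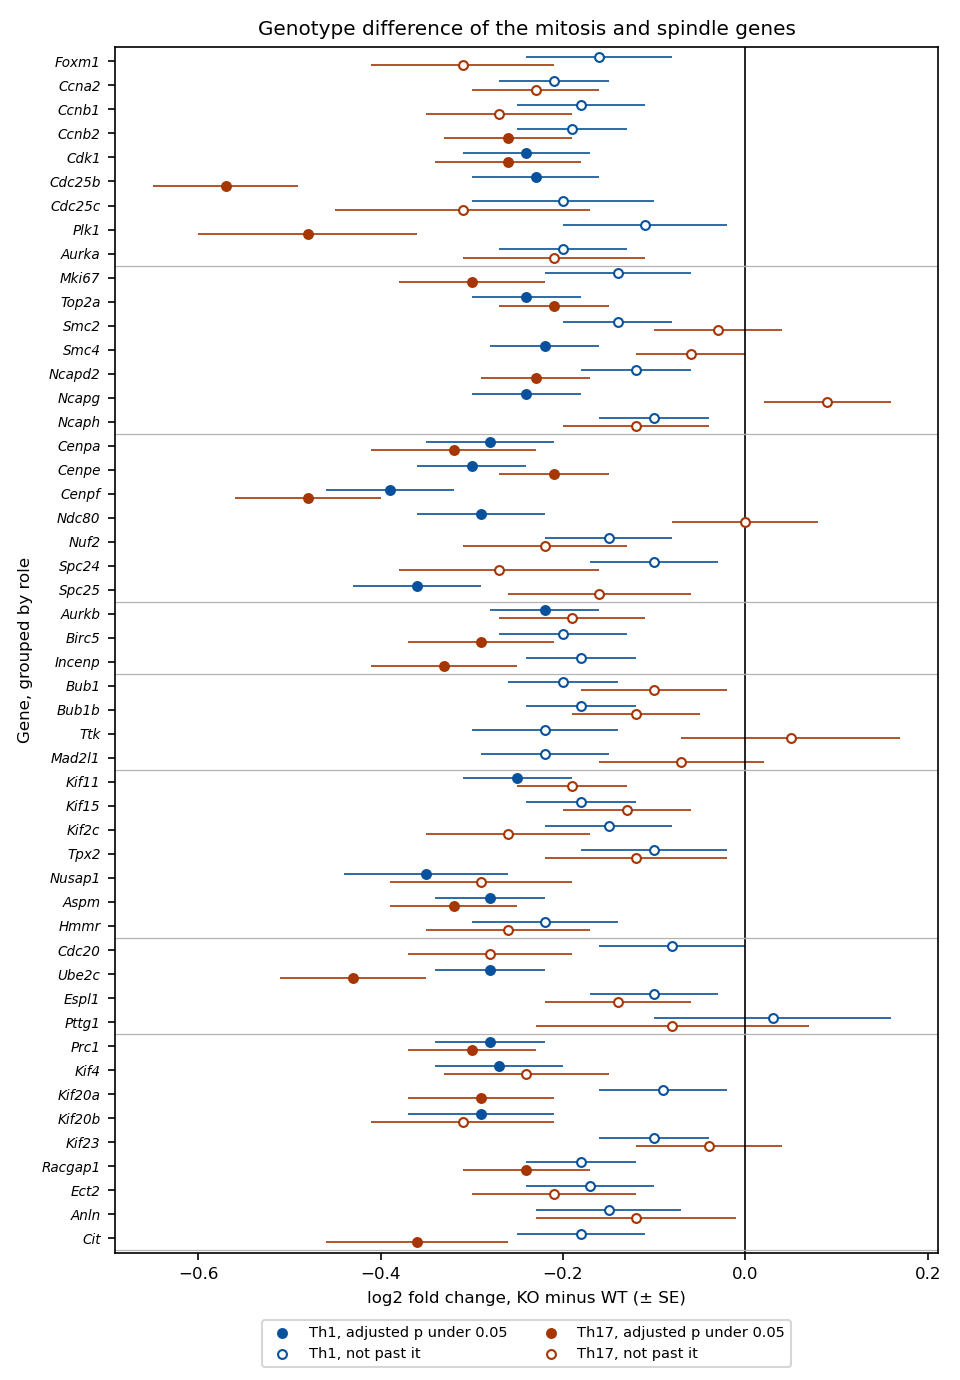
Log2 fold change of KO minus WT (points, bars ± SE) of each gene in Th1 (blue) and Th17 (orange), grouped by role, with filled points for adjusted p under 0.05 in edgeR. In Th1, 49 of 50 points lie left of 0, and in Th17, 47.

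Among the 9 genes of mitotic entry, 2 were lower in KO in Th1 (Cdk1 and Cdc25b) and 4 in Th17 (Cdk1, Cdc25b, Ccnb2 and Plk1). Cdc25b (ENSMUSG00000027330, chromosome 2, 131186949 to 131198497) encodes a phosphatase that activates Cdk1. Cdc25b was at 103, 104 and 95 CPM in Th1 WT, 86.3, 90.6 and 80.9 in Th1 KO, 83.4, 97.3 and 87.2 in Th17 WT and 58.9, 57.8 and 60.4 in Th17 KO. Its KO values were below all WT values in each culture. The distance was wider in Th17 (-0.57 ± 0.08, adjusted p = 4.43e-05) than in Th1 (-0.23 ± 0.07, adjusted p = 0.044), but the difference did not pass its own test (adjusted p = 0.148). The Th17 call of Cdc25b held under all 22 alternatives, while the Th1 call was lost without any of Th1 WT 1, KO 1, WT 2, KO 2 or KO 3 (adjusted p up to 0.213). Cdk1 was at 182, 185 and 179 CPM in Th1 WT, 154, 156 and 152 in Th1 KO, 103, 123 and 118 in Th17 WT and 86.3, 98.7 and 99.3 in Th17 KO. This kinase, which drives entry into mitosis (ENSMUSG00000019942, chromosome 10, 69335146 to 69352938), was lower in KO in Th1 (-0.24 ± 0.07, adjusted p = 0.032) and in Th17 (-0.26 ± 0.08, adjusted p = 0.0486) with no overlap in either. Its Th1 call was lost without any single Th1 library (adjusted p up to 0.154), and its Th17 call without Th17 KO 1, WT 2, WT 3 or any single Th1 library (up to 0.364).

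The cyclins lay lower in KO, with 1 call among them. Ccnb1 was at 195, 229 and 212 CPM in Th1 WT, 188, 187 and 186 in Th1 KO, 139, 128 and 164 in Th17 WT and 111, 108 and 126 in Th17 KO. Ccnb2 was at 142, 149 and 140 CPM in Th1 WT, 130, 125 and 123 in Th1 KO, 100, 93.3 and 106 in Th17 WT and 82.5, 81.9 and 83.1 in Th17 KO. Ccna2 was at 386, 437 and 428 CPM in Th1 WT, 364, 361 and 358 in Th1 KO, 217, 225 and 249 in Th17 WT and 182, 202 and 202 in Th17 KO. In all 3 the KO libraries lay below the WT libraries of the same culture. The call was that of Ccnb2 in Th17 (-0.26 ± 0.07, adjusted p = 0.0281), lost without Th1 KO 2 or Th17 WT 1, KO 1, WT 3 or KO 3 (adjusted p up to 0.131). Ccnb1, cyclin B1, had log2 fold changes of -0.18 ± 0.07 (Th1, adjusted p = 0.169) and -0.27 ± 0.08 (Th17, adjusted p = 0.0538). Ccna2, cyclin A2, had -0.21 ± 0.06 (Th1, adjusted p = 0.0535) and -0.23 ± 0.07 (Th17, adjusted p = 0.0562). Ccnb1 has near-identical copies elsewhere in the genome (Ccnb1-ps with 129 and Gm12856 with 29 counts over all libraries, against 20815 for Ccnb1), and Ccna2 overlaps Exosc9 on the opposite strand, so reads may have been split.

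Foxm1 encodes a transcription factor of G2 genes, and Plk1 the polo-like kinase. Foxm1 was at 95.8, 99.6 and 101 CPM in Th1 WT, 85.2, 89.1 and 89.6 in Th1 KO, 55.3, 62.9 and 55 in Th17 WT and 44.3, 68.3 and 43.9 in Th17 KO. Plk1 was at 65.8, 75.7 and 81.6 CPM in Th1 WT, 65.6, 71.2 and 69.8 in Th1 KO, 44.9, 47.5 and 60.2 in Th17 WT and 32.8, 49.4 and 32.9 in Th17 KO. In Th17 both genes overlapped between genotypes through KO 2, a shallow library. KO 2 was above all WT libraries for Foxm1 and within the WT range for Plk1, while KO 1 and KO 3 were below all WT libraries. Plk1 passed the test in Th17 (-0.48 ± 0.12, adjusted p = 0.0216), lost without Th17 KO 1, WT 2, WT 3 or KO 3 (adjusted p up to 0.122), and Foxm1 did not (-0.31 ± 0.10, adjusted p = 0.0806). In Th1, neither passed (-0.11 ± 0.09, adjusted p = 0.602 for Plk1 and -0.16 ± 0.08, adjusted p = 0.268 for Foxm1). The kinase Aurka and the phosphatase Cdc25c were below 0 in both cultures, at -0.20 and -0.20 in Th1 and -0.21 and -0.31 in Th17, and passed in neither.

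In the 7 genes of chromosome structure, 3 were lower in KO in each culture: Top2a, Smc4 and Ncapg in Th1, and Top2a, Mki67 and Ncapd2 in Th17. Top2a was at 1710, 1840 and 1780 CPM in Th1 WT, 1470, 1520 and 1530 in Th1 KO, 1130, 1120 and 1200 in Th17 WT and 979, 924 and 1060 in Th17 KO. Top2a (ENSMUSG00000020914, chromosome 11, 98992943 to 99024189), the topoisomerase that untangles sister chromosomes, did not overlap between genotypes in either culture (-0.24 ± 0.06, adjusted p = 0.0226 in Th1, -0.21 ± 0.06, adjusted p = 0.0479 in Th17). Mki67 was at 1470, 1530 and 1570 CPM in Th1 WT, 1320, 1380 and 1440 in Th1 KO, 964, 1140 and 1170 in Th17 WT and 795, 1010 and 872 in Th17 KO. Mki67 (ENSMUSG00000031004, chromosome 7, 135689784 to 135716361), which encodes the proliferation marker Ki-67 that coats mitotic chromosomes, did not overlap in Th1 but missed the threshold (-0.14 ± 0.08, adjusted p = 0.37). In Th17, Mki67 passed (-0.30 ± 0.08, adjusted p = 0.0273) although KO 2 lay above WT 1. Single libraries ended these calls: Th1 KO 1, WT 2, KO 2 or WT 3 for Top2a in Th1 (adjusted p up to 0.135), and every library but Th17 KO 3 for Top2a in Th17 (up to 0.202). They were Th17 KO 1, WT 2, WT 3 or KO 3 for Mki67 (up to 0.167).

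Condensin, the ring complex that compacts chromosomes, is represented by Smc2, Smc4, Ncapd2, Ncapg and Ncaph. Smc4 was at 535, 570 and 580 CPM in Th1 WT, 483, 469 and 490 in Th1 KO, 341, 358 and 357 in Th17 WT and 313, 340 and 360 in Th17 KO. Smc2 was at 376, 384 and 385 CPM in Th1 WT, 344, 346 and 347 in Th1 KO, 219, 234 and 218 in Th17 WT and 205, 211 and 239 in Th17 KO. Ncapg was at 175, 180 and 179 CPM in Th1 WT, 140, 156 and 156 in Th1 KO, 140, 143 and 146 in Th17 WT and 141, 148 and 164 in Th17 KO. In Th1 the KO libraries of all 3 were below the WT libraries, with Smc4 at -0.22 ± 0.06, adjusted p = 0.0269, Smc2 at -0.14 ± 0.06, adjusted p = 0.202 and Ncapg at -0.24 ± 0.06, adjusted p = 0.0247. In Th17 the ranges of all 3 overlapped, and Ncapg had a positive log2 fold change (0.09 ± 0.07, adjusted p = 0.571). Ncapg was the member with the smallest p for a difference between cultures, which did not pass after adjustment in the unpaired fit of all 12 libraries. Its Th1 call was lost without Th1 WT 1, KO 1, WT 2, KO 2 or WT 3 (adjusted p up to 0.189), and that of Smc4 without KO 1, WT 2, KO 2, WT 3 or KO 3 (up to 0.151). Part of Ncapg overlaps Lcorl on the opposite strand. Ncapd2 was called in Th17 alone (-0.23 ± 0.06, adjusted p = 0.0282; lost without Th17 WT 1, WT 2, WT 3 or KO 3, adjusted p up to 0.147), and Ncaph in neither.

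The centromere and kinetochore genes had the largest share of calls in Th1, with 5 of 7 lower in KO and a median log2 fold change of -0.29, and 3 of 7 lower in Th17 with a median of -0.22. Cenpf was at 261, 275 and 262 CPM in Th1 WT, 195, 209 and 203 in Th1 KO, 171, 192 and 237 in Th17 WT and 141, 128 and 140 in Th17 KO. Cenpf (ENSMUSG00000026605, chromosome 1, 189640606 to 189688086), a large kinetochore protein made in G2, was lower in every KO library than in every WT library of its culture (-0.39 ± 0.07, adjusted p = 0.00126 in Th1, -0.48 ± 0.08, adjusted p = 0.000546 in Th17). Cenpe was at 263, 278 and 274 CPM in Th1 WT, 214, 225 and 222 in Th1 KO, 184, 195 and 193 in Th17 WT and 159, 162 and 170 in Th17 KO. Cenpe (ENSMUSG00000045328, chromosome 3, 135212537 to 135273611), the kinetochore motor that moves chromosomes to the spindle equator, showed the same order, at -0.30 ± 0.06 (Th1, adjusted p = 0.00126) and -0.21 ± 0.06 (Th17, adjusted p = 0.0451). The Cenpe call in Th1 and the Cenpf call in Th17 held under all 22 alternatives, and the Cenpf call in Th1 under 21. The Cenpe call in Th17 was lost without any single library of the 12 (adjusted p 0.0529 to 0.222). Cenpa was at 129, 136 and 134 CPM in Th1 WT, 114, 112 and 104 in Th1 KO, 97.4, 95.3 and 84.1 in Th17 WT and 73, 57.8 and 83.2 in Th17 KO. Cenpa, the histone H3 variant that marks centromeres, did not overlap between genotypes (-0.28 ± 0.07, adjusted p = 0.021 in Th1, -0.32 ± 0.09, adjusted p = 0.0257 in Th17). Both Cenpa calls were lost without Th1 WT 2, KO 2, WT 3 or KO 3 in Th1 (up to 0.122) and without Th17 WT 1, KO 1 or WT 2 in Th17 (up to 0.167).

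The 4 subunits of the NDC80 complex, which grips microtubules at the kinetochore, differed in their calls. Spc25 was at 68.8, 74.7 and 64.9 CPM in Th1 WT, 51, 55 and 56.4 in Th1 KO, 34.1, 35.2 and 37.4 in Th17 WT and 31.1, 28.4 and 31.6 in Th17 KO. Ndc80 was at 88.9, 97.8 and 101 CPM in Th1 WT, 75.5, 77.5 and 82.1 in Th1 KO, 58.5, 58.5 and 65.4 in Th17 WT and 62.9, 53.6 and 57.8 in Th17 KO. Spc25 (-0.36 ± 0.07, adjusted p = 0.00137) and Ndc80 (-0.29 ± 0.07, adjusted p = 0.00864) were lower in Th1 KO with no overlap, and the Ndc80 call was lost without Th1 KO 1 (adjusted p = 0.0515). The Spc25 call did not hold under all 22 alternatives either. In Th17, Spc25 was at -0.16 ± 0.10, adjusted p = 0.412 and Ndc80 at 0.00 ± 0.08, with overlapping ranges for Ndc80. Nuf2 was at 79.4, 85.1 and 82.5 CPM in Th1 WT, 75.2, 77.9 and 69.9 in Th1 KO, 44.1, 50.6 and 55 in Th17 WT and 38.6, 38.9 and 43.3 in Th17 KO. Spc24 was at 47.7, 50.7 and 42.6 CPM in Th1 WT, 45.2, 43.8 and 42.6 in Th1 KO, 28, 27.3 and 23.9 in Th17 WT and 23.2, 18.9 and 22.7 in Th17 KO. Neither Nuf2 nor Spc24 was called in Th1 (-0.15 ± 0.07 and -0.10 ± 0.07) or Th17 (-0.22 ± 0.09 and -0.27 ± 0.11), although both were below all WT libraries in each Th17 KO library.

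The chromosomal passenger complex, whose kinase Aurora B corrects faulty attachments, had 1 of 3 members lower in Th1 KO and 2 of 3 in Th17 KO. Aurkb was at 151, 152 and 141 CPM in Th1 WT, 130, 125 and 127 in Th1 KO, 87.2, 86.2 and 79.9 in Th17 WT and 70.2, 84 and 77.1 in Th17 KO. Incenp was at 166, 166 and 164 CPM in Th1 WT, 144, 150 and 144 in Th1 KO, 103, 111 and 107 in Th17 WT and 76.6, 95.6 and 89.2 in Th17 KO. Birc5 was at 146, 162 and 154 CPM in Th1 WT, 127, 135 and 139 in Th1 KO, 106, 89 and 109 in Th17 WT and 81.3, 84 and 83.1 in Th17 KO. All 3 were below WT in every Th1 KO library, and Aurkb, Aurora B itself, passed there (-0.22 ± 0.06, adjusted p = 0.0382; lost without Th1 WT 1, KO 1, WT 2, KO 2 or KO 3, up to 0.195). In Th17 the scaffold Incenp (-0.33 ± 0.08, adjusted p = 0.00978) and survivin, encoded by Birc5 (-0.29 ± 0.08, adjusted p = 0.026), passed with no overlap, and Aurkb did not (-0.19 ± 0.08, adjusted p = 0.167). The Incenp call was lost without Th17 KO 1 or WT 2 (up to 0.154), and the Birc5 call without Th17 WT 1, KO 1, WT 3 or KO 3 (up to 0.223).

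The 4 spindle checkpoint genes, which delay anaphase until all chromosomes are attached, passed in neither culture with edgeR. In Th1, 4 of 4 had an unadjusted p under 0.05, DESeq2 called 0 and limma-voom 4, and the median was -0.21. In Th17, 0 of 4 had an unadjusted p under 0.05, both other tools called 0, and the median was -0.09. Bub1 was at 119, 130 and 127 CPM in Th1 WT, 107, 110 and 111 in Th1 KO, 84.3, 74.4 and 91.4 in Th17 WT and 76.5, 68.3 and 79.9 in Th17 KO. Bub1b was at 169, 181 and 172 CPM in Th1 WT, 150, 157 and 154 in Th1 KO, 112, 112 and 124 in Th17 WT and 99, 109 and 109 in Th17 KO. Both checkpoint kinases were below WT in every Th1 KO library (-0.20 ± 0.06, adjusted p = 0.0815 for Bub1 and -0.18 ± 0.06, adjusted p = 0.0909 for Bub1b). In Th17, Bub1 overlapped between genotypes (-0.10 ± 0.08) and Bub1b did not (-0.12 ± 0.07). Mad2l1 was at -0.22 ± 0.07 in Th1 and -0.07 ± 0.09 in Th17, and Ttk, the kinase Mps1, at -0.22 ± 0.08 and 0.05 ± 0.12.

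Spindle motors and binders gave 3 of 7 lower in Th1 KO (Kif11, Nusap1 and Aspm) and 1 of 7 in Th17 KO (Aspm). Aspm was at 205, 212 and 207 CPM in Th1 WT, 169, 176 and 170 in Th1 KO, 135, 151 and 159 in Th17 WT and 115, 118 and 116 in Th17 KO. Aspm (ENSMUSG00000033952, chromosome 1, 139454772 to 139494091), which organises the spindle poles, did not overlap between genotypes in either culture (-0.28 ± 0.06, adjusted p = 0.0047 in Th1, -0.32 ± 0.07, adjusted p = 0.00413 in Th17). Neither of these Aspm calls held under all 22 alternatives. Kif11 was at 410, 453 and 432 CPM in Th1 WT, 360, 362 and 366 in Th1 KO, 233, 246 and 234 in Th17 WT and 196, 210 and 218 in Th17 KO. Kif11 (ENSMUSG00000012443, chromosome 19, 37376403 to 37421859), the motor that pushes the spindle poles apart, showed the same order with -0.25 ± 0.06, adjusted p = 0.00991 in Th1. That call was lost without KO 1, WT 2 or KO 2 (up to 0.0977), and in Th17 the value was -0.19 ± 0.06, adjusted p = 0.0802. The microtubule binder Nusap1 had a log2 fold change of -0.35 ± 0.09, adjusted p = 0.0331 in Th1, lost without any single Th1 library (up to 0.154), and it overlaps Oip5. Kif15, Kif2c, Tpx2 and Hmmr were between -0.22 and -0.10 in Th1 and between -0.26 and -0.12 in Th17, and none of these 4 passed.

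Of the 4 genes of anaphase and mitotic exit, Ube2c was lower in KO in both cultures and the other 3 were called in neither. Ube2c was at 169, 174 and 165 CPM in Th1 WT, 147, 144 and 129 in Th1 KO, 110, 107 and 108 in Th17 WT and 74.4, 90.3 and 83.2 in Th17 KO. Ube2c (ENSMUSG00000001403, chromosome 2, 164769898 to 164778822), the ubiquitin-conjugating enzyme that serves the anaphase-promoting complex, did not overlap between genotypes (-0.28 ± 0.06, adjusted p = 0.0109 in Th1, -0.43 ± 0.08, adjusted p = 0.000852 in Th17). Its Th1 call was lost without Th1 WT 2 or KO 3 (adjusted p up to 0.101). Its Th17 call held without each single library but not under all 22 alternatives. Cdc20 was at 132, 146 and 135 CPM in Th1 WT, 148, 125 and 119 in Th1 KO, 87.6, 103 and 91.4 in Th17 WT and 81, 66.2 and 75.8 in Th17 KO. Cdc20, the activator of the anaphase-promoting complex, overlapped in Th1, where KO 1 was above all WT libraries (-0.08 ± 0.08, adjusted p = 0.702), and lay below WT in all 3 Th17 KO libraries without passing (-0.28 ± 0.09, adjusted p = 0.0868). The protease separase, encoded by Espl1, was at -0.10 ± 0.07 in Th1 and -0.14 ± 0.08 in Th17, and securin, encoded by Pttg1, at 0.03 ± 0.13 and -0.08 ± 0.15.

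Central spindle and cytokinesis genes gave 3 of 9 lower in Th1 KO (Prc1, Kif4 and Kif20b) and 4 of 9 in Th17 KO (Prc1, Cit, Kif20a and Racgap1). Prc1 was at 271, 301 and 290 CPM in Th1 WT, 229, 246 and 236 in Th1 KO, 140, 139 and 141 in Th17 WT and 103, 116 and 123 in Th17 KO. Prc1 (ENSMUSG00000038943, chromosome 7, 80294450 to 80316259), which bundles the microtubules of the central spindle, was highest in Th1 WT, then in Th1 KO, then in Th17 WT and lowest in Th17 KO, with no overlap between the groups. Its log2 fold changes passed in both cultures (-0.28 ± 0.06, adjusted p = 0.0093 in Th1, lost without KO 1 or WT 2, up to 0.0879; -0.30 ± 0.07, adjusted p = 0.0137 in Th17, lost without KO 1, at 0.174). Kif20b was at 134, 152 and 149 CPM in Th1 WT, 114, 118 and 123 in Th1 KO, 74, 86.2 and 105 in Th17 WT and 62.1, 72.5 and 70.6 in Th17 KO. Kif20a was at 183, 200 and 175 CPM in Th1 WT, 180, 175 and 171 in Th1 KO, 125, 125 and 118 in Th17 WT and 97.3, 83 and 111 in Th17 KO. Cit was at 89.7, 88.9 and 88.8 CPM in Th1 WT, 75.6, 81 and 79.4 in Th1 KO, 59.1, 73.6 and 87.2 in Th17 WT and 52, 56.7 and 52.5 in Th17 KO. The motor Kif20b did not overlap between genotypes in either culture and passed in Th1 (-0.29 ± 0.08, adjusted p = 0.0262; lost without KO 1, WT 2, KO 2 or WT 3, up to 0.157). Kif20a, the kinesin MKLP2, and Cit, citron kinase, passed in Th17 (-0.29 ± 0.08, adjusted p = 0.0293 and -0.36 ± 0.10, adjusted p = 0.0253) with no overlap. The Kif20a call was lost without Th17 WT 1, KO 1, WT 2 or KO 2 (up to 0.16), and the Cit call without KO 1, WT 2, WT 3 or KO 3 (up to 0.131). Anln was at 73.9, 84.4 and 85.2 CPM in Th1 WT, 66.7, 76.2 and 76.8 in Th1 KO, 37.1, 46.3 and 38.4 in Th17 WT and 37.1, 26.3 and 37.6 in Th17 KO. Anillin, encoded by Anln, was called in neither (-0.15 ± 0.08 and -0.12 ± 0.11). Kif4 passed in Th1 (-0.27 ± 0.07, adjusted p = 0.0377) and Racgap1 in Th17 (-0.24 ± 0.07, adjusted p = 0.0499). The former was lost without any single Th1 library (up to 0.172) and the latter without any library but Th17 WT 3 (up to 0.225). Kif23 and Ect2 passed in neither.

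The difference between cultures was larger than that between genotypes. Against Th1 WT, 49 of 50 members were lower in Th17 WT and 1, Pttg1, was higher, where 23.6% of all genes were called lower, 23.5% higher and 47.1% in either direction. The median was -0.60 beside -0.01 over all genes tested. Between Th17 KO and Th1 KO, 48 were lower, Pttg1 was higher and Ncapg was not called (26.7%, 26.9% and 53.6% of all genes), with a median of -0.59 beside 0. Ranges did not overlap and were lower in Th17 for 48 members in each comparison, against 27.5% of all genes in WT and 28.6% in KO. They were higher in Th17 for 1 member, Pttg1, against 24.6% and 27.1%. Prc1 (-1.04 ± 0.07 in WT, -1.06 ± 0.07 in KO), Anln (-1.03 ± 0.10 and -1.01 ± 0.09), Spc25 (-1.0 ± 0.09 and -0.80 ± 0.08), Ccna2 (-0.88 ± 0.07 and -0.89 ± 0.07) and Kif11 (-0.86 ± 0.06 and -0.80 ± 0.06) were among the members with the smallest p. Prc1 led in both comparisons (adjusted p = 4.52e-12 and 1.4e-12).

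Members differed in how far they were from Th1. Smallest distances in WT were those of Cdc25b (-0.19 ± 0.07, adjusted p = 0.0413), whose ranges overlapped, Ncapd2 (-0.25 ± 0.06, adjusted p = 0.00116), Kif23 (-0.28 ± 0.07, adjusted p = 0.00187) and Ncapg (-0.32 ± 0.07, adjusted p = 0.000379). Foxm1 (-0.78 ± 0.09 in WT, -0.92 ± 0.09 in KO), Aurkb (-0.79 ± 0.07 and -0.76 ± 0.07), Nuf2 (-0.80 ± 0.08 and -0.87 ± 0.08), Incenp (-0.64 ± 0.07 and -0.79 ± 0.07) and Ube2c (-0.64 ± 0.07 and -0.80 ± 0.07) were lower by more. Pttg1 was at 9, 8.78 and 9.02 CPM in Th1 WT, 9.64, 8.76 and 9.12 in Th1 KO, 14.8, 13.4 and 9.34 in Th17 WT and 12.7, 15.8 and 13.1 in Th17 KO. Pttg1 (ENSMUSG00000020415, chromosome 11, 43420250 to 43426251) was higher in every Th17 library than in the Th1 libraries of the same genotype, and Th17 WT 3 was close to the Th1 values (0.64 ± 0.15, adjusted p = 0.000781 in WT and 0.52 ± 0.13, adjusted p = 0.00203 in KO). The Pttg1 call in WT was lost without Th17 WT 1 (0.138), as was that of Cit (0.111). The calls of Cdc25b and Cdc25c in WT were each lost without 4 of the single libraries (Th1 WT 1, WT 2, Th17 WT 1 or WT 3 for Cdc25b, up to 0.424; Th1 WT 2, WT 3, Th17 WT 2 or WT 3 for Cdc25c, up to 0.103). Without the 3 shallow libraries 48 members were lower in each comparison, and calls held under all 22 alternatives for 44 of 50 members in WT and 41 of 49 in KO.

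The other genes of the cycle were read from lists of their own. Of 61 other mitosis genes, 10 were lower in Th1 KO and 8 in Th17 KO with 0 higher, and 56 and 55 were lower in Th17 than in Th1 in WT and KO. Over all genes, 2.92% were called lower in Th1 KO and 4.02% in Th17 KO. The shares lower in Th17 than in Th1 were 23.6% in WT and 26.7% in KO. Named by smallest p, these were Knl1 (-0.30 ± 0.06), Hjurp (-0.28 ± 0.06) and Ckap2l (-0.28 ± 0.06) in Th1 KO, and Troap (-0.71 ± 0.14), Ckap5 (-0.30 ± 0.06) and Bub3 (-0.32 ± 0.07) in Th17 KO. The calls of Hjurp (without Th1 KO 1, adjusted p = 0.0742), Ckap2l (without Th1 WT 2, 0.0624) and Bub3 (without Th17 KO 1, 0.0752) were lost without a single library. Of 47 DNA replication genes, which act in the phase before, 0 were called in Th1 KO (2 at an unadjusted p under 0.05, 0 by DESeq2 and 0 by limma-voom; median -0.01). In Th17 KO, 2 were higher, Rfc3 (0.40 ± 0.10, adjusted p = 0.0207) and Pola1 (0.25 ± 0.07, adjusted p = 0.0305), with a median of 0.04 and 0 called by either other tool. Over all genes, 4.61% were called in Th1 KO and 5.83% in Th17 KO, so these counts of calls are near that share. Rfc3 was lost without Th17 WT 1, KO 1, WT 2 or WT 3 (up to 0.173) and Pola1 without WT 1, WT 2 or KO 3 (up to 0.145). The summed level of the replication genes in KO was 99.6% of WT in Th1 and 100% in Th17. Averaged over both cultures, 2 of the 47 were lower and 2 higher in KO, with a median of 0.02. Of the 61 other mitosis genes, 24 were lower and 0 higher in that average (6.64% and 3.19% of all genes). Between cultures the replication genes differed, with 39 of 47 lower in Th17 WT (median -0.53) and 36 lower and 1 higher in Th17 KO (median -0.45). Their sums stood at 70.6% and 71.2% of the Th1 sums.

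**Figure D4:**
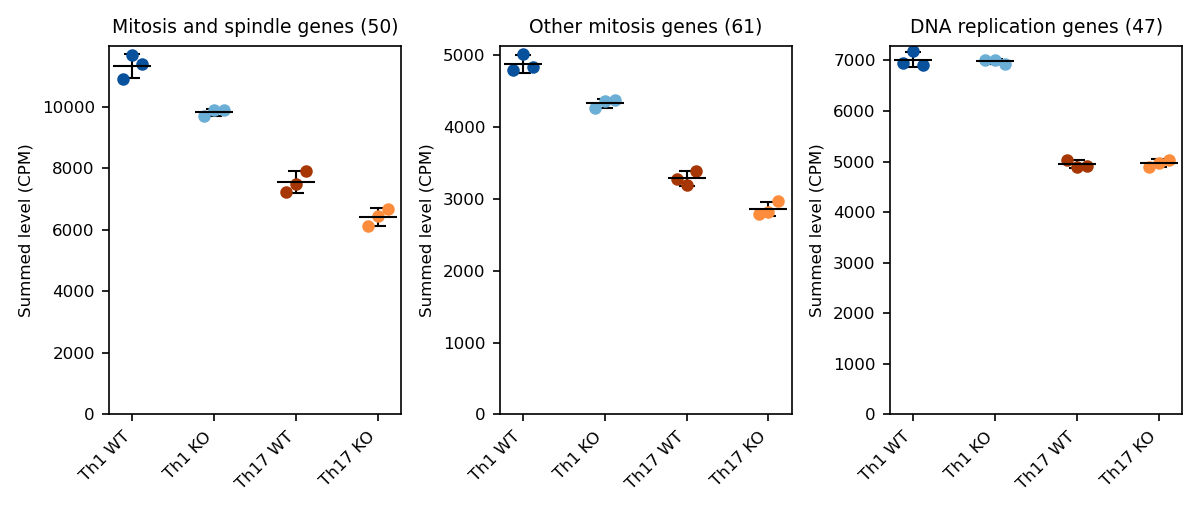
Summed level (CPM) of the 50 mitosis and spindle genes, 61 other mitosis genes and 47 DNA replication genes in each library (points), with group mean and SD (bars, n = 3). In both mitosis panels KO lies below WT in each culture, at 85% to 88.7% of it, whereas the replication sums are at 99.6% and 100% of WT.

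Regulators of the cycle were called in single genes rather than as whole lists. E2f1, a transcription factor of the G1 to S transition, was higher in KO in Th1 (0.70 ± 0.11, adjusted p = 0.000196) and in Th17 (0.70 ± 0.16, adjusted p = 0.00756). Cdkn2d, an inhibitor of the G1 kinases, was lower in both (-0.43 ± 0.07, adjusted p = 0.000388 and -0.43 ± 0.09, adjusted p = 0.00409). In Th1 KO, Cdkn1a, the inhibitor p21, was higher (0.45 ± 0.09, adjusted p = 0.00206), while Cdkn2c (-0.39 ± 0.09, adjusted p = 0.0196) and Rbl1, a pocket protein of the DREAM complex (-0.24 ± 0.07, adjusted p = 0.0396), were lower. In Th17 KO, Ccnd3 (-0.30 ± 0.07, adjusted p = 0.0113), E2f2 (-0.31 ± 0.08, adjusted p = 0.0177) and E2f4 (-0.30 ± 0.08, adjusted p = 0.0315) were lower and Ccng1, a p53 target, was higher (0.32 ± 0.07, adjusted p = 0.0109). Subunits and partners of the anaphase-promoting complex, 17 genes outside the members, and 10 cohesin genes had 0 calls for KO against WT in either culture with edgeR or DESeq2. At an unadjusted p under 0.05 there were 4 of each list in Th1 and 2 and 1 in Th17, and limma-voom called 2 and 1 in Th1 and 0 in Th17. Over all genes, edgeR called 4.61% in Th1 and 5.83% in Th17, so 0 calls in lists of this size is near that share. Tubulins, the building blocks of the spindle and of other microtubules, were mixed, with Tubb6 higher in Th1 KO (1.18 ± 0.12, adjusted p = 3.56e-05) and Tubb2a (-0.72 ± 0.13, adjusted p = 0.000546) and Tubb5 (-0.22 ± 0.06, adjusted p = 0.0305) lower in Th17 KO. Single libraries ended the Th1 calls of Cdkn2c (KO 1, KO 2, WT 3 or KO 3, up to 0.105) and Rbl1 (any but KO 3, up to 0.218). They also ended the Th17 calls of E2f1 and Ccnd3 (WT 1, 0.109 and 0.12) and Ccng1 (KO 1 or WT 2, up to 0.0977). Likewise lost were E2f2 (WT 1, KO 1 or WT 2, up to 0.165), E2f4 (KO 1, WT 2, WT 3 or KO 3, up to 0.126) and Tubb5 (WT 1, KO 1, WT 3 or KO 3, up to 0.124).

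The other lists were called between cultures at shares that stand beside the 23.6% of all genes lower and 23.5% higher in Th17 WT. Of the smaller lists, 8 of 12 tested G1 cyclins, kinases and inhibitors were lower and 1 higher in Th17 WT, led by Cdkn2c (-1.69 ± 0.13). Of the RB, E2F, MuvB and NF-Y factors, 16 of 22 were lower and 1 higher, led by E2f7 (-1.19 ± 0.11) and E2f8 (-0.80 ± 0.08), with Tfdp2 the factor that was higher (1.32 ± 0.13). Fbxo5, an inhibitor of the anaphase-promoting complex (-1.15 ± 0.08), and Ube2s, which extends its ubiquitin chains (-0.97 ± 0.07), were the leading calls among 7 lower and 1 higher of 17 genes. Taken in either direction this share is near that over all genes (47.1%), but the calls were mostly lower. Among tubulins 6 were lower and 4 higher, with Tuba4a at -1.40 ± 0.07 and Tubb6 at 1.65 ± 0.14. Of 10 cohesin genes, 6 were lower and 1 higher in Th17 WT. Of 10 tested p53 targets, 4 were higher and 1 lower in Th17 WT, with Ccng1 at 0.37 ± 0.07, Trp53inp1 at 0.42 ± 0.08 and Bbc3 at 0.82 ± 0.21 (lost without Th17 WT 1, 0.0717). In either direction this is also near the share over all genes, but the calls were mostly higher.

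**Figure D5:**
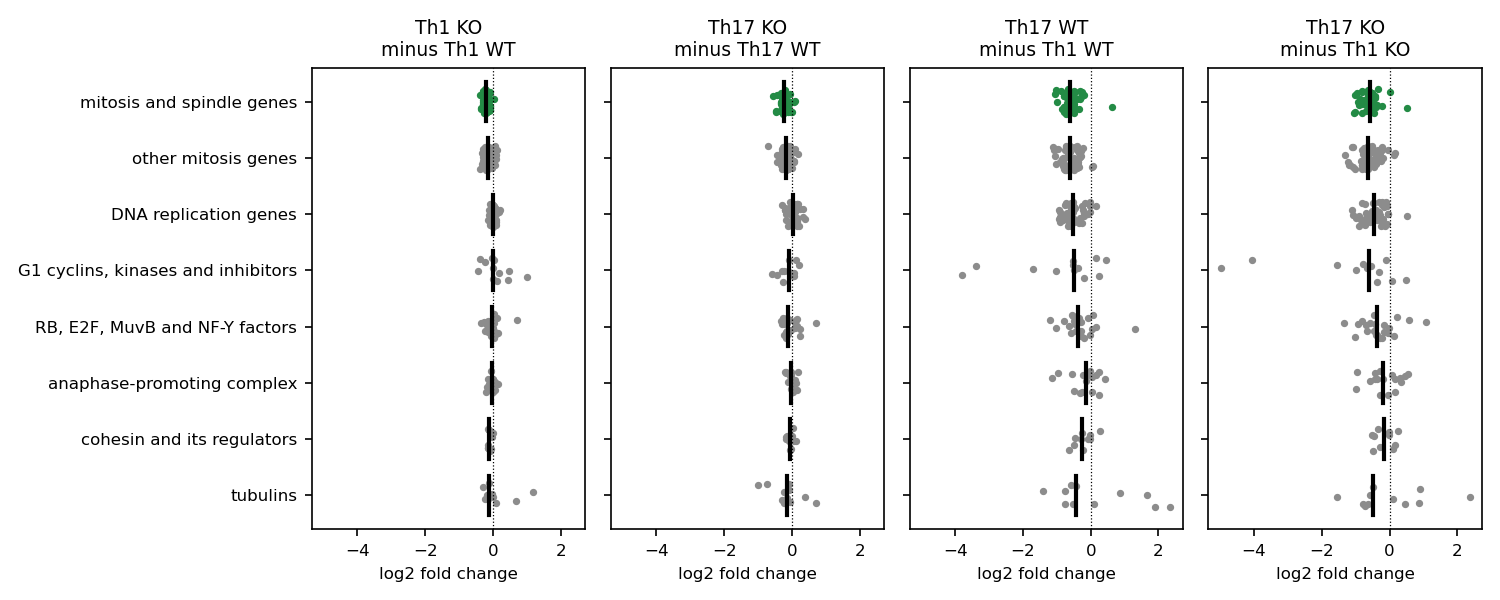
Log2 fold change of every tested gene (points) of 8 cell cycle lists in 4 comparisons, with the list median as a vertical bar. For the 50 mitosis and spindle genes the medians are -0.20 and -0.24 for KO minus WT and -0.60 and -0.59 for Th17 minus Th1, whereas for the DNA replication genes they are -0.01, 0.04, -0.53 and -0.45.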

How the data were processed

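Poly-A RNA of 12 sorted samples in 4 groups of 3 was sequenced. Per the labels' protocols, cDNA was made from total RNA with a Smart-Seq template-switching kit, which does not mark strand, tagmented from 150 pg and read as pairs of 75 nt. The tools listed in the submitters' processing notes are TopHat2, Bowtie2 and featureCounts, on build GRCm38 (mm10). For versions, strand setting and annotation release the sources used here give nothing. The values deposited by the authors are raw whole-number counts per Ensembl gene ID, and 37607 of 39179 IDs (96.0%) were named with a GENCODE annotation of GRCm38.

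Counts were TMM-normalised and filtered with filterByExpr in edgeR 4.0.16 (R 4.3.3), leaving 12189 genes. Tests were edgeR's quasi-likelihood F-tests (robust, all 12 samples, no covariate) with Benjamini-Hochberg adjustment over all genes, threshold 0.05. The SE is the absolute log2 fold change over the root of F. The same code was tested on simulated counts. The 6 contrasts set KO against WT in each culture and Th17 against Th1 in each genotype, and took the averaged genotype difference and its difference between cultures. Alternatives were RLE factors, DESeq2 1.42.0, limma-voom with sample weights (limma 3.58.1), no low-count filter, thinning to 844327 counts, leaving out the dominant ID, the 3 shallow libraries or each library, a term for shallow libraries, and a fit of only the groups compared.

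The members and all lists were chosen with earlier results of these data known. In each comparison the 12 called members of smallest p (or, with no call, the 3 leading ones) and 12 set members (Mki67, Top2a, Cdk1, Ccnb1, Foxm1, Aurkb, Plk1, Bub1, Cenpf, Kif11, Cdc20 and Ube2c) are named with every library's value. Of each other cell cycle list, up to 3 called genes of smallest p are named for KO against WT in each culture. Between cultures, leading genes are named for some of these lists, in WT alone. No 2 libraries were identical. Replicate numbers follow accession order and serve as names. The titles carry serial library codes in which WT and KO samples of a culture type alternate, but no label says that neighbouring codes mark a shared culture, so the test does not pair them. A fit with such pairs as a block and library totals in place of TMM were added after seeing the data. Members that share exon bases with another gene (Foxm1 with Tex52, Ccna2 with Exosc9, Cdc25b with Spef1, Cdc25c with Gm3550, Ncapg with Lcorl, Nusap1 with Oip5, Cdc20 with Elovl1, Ube2c with Tnnc2, Prc1 with Rccd1, Kif4 with Pdzd11, Kif20a with Cdc23, Top2a with Gm23451 and Ncapd2 with Scarna10), or have near-identical copies (Ccnb1 and Mad2l1; at least 95% identity over 250 bases), are uncertain, since strands were not told apart and reads could be split.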

Additional observations from a re-analysis of the deposited data

How the results depend on the processing

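The number of calls depended on the processing more than their direction did. No member called in the comparisons of KO with WT or of Th17 with Th1 changed sign under any alternative, whereas 11 of the 50 members changed sign in at least 1 alternative for KO against WT in Th17 and 3 in Th1. Of 18 calls each, 1 (Cenpe) held under all 22 alternatives without a block in Th1 and 2 (Cdc25b and Cenpf) in Th17, against 44 of 50 between cultures in WT and 41 of 49 in KO. A paired fit was added after seeing the data. Its replicate block joined each WT sample to the KO sample next to it in code order (its neighbour). The codes of such neighbours are not adjacent numbers, and most KO codes are directly followed by the code of another WT sample. No label says that neighbours shared a culture. Their deviations from the group means correlated at 0.136, 0.0287 and 0.166 in Th1 and 0.226, 0.0259 and -0.0622 in Th17, and 6 of 6 Th1 and 3 of 6 Th17 samples correlated best with their own neighbour, which is only a hint. With this replicate block, 1315 genes and 32 members were called for KO against WT in Th1, 1117 and 27 in Th17, 1797 and 39 for the averaged difference, and 329 genes and 1 member (Ncapg) for the difference between cultures, and every member called without it was called with it. Comparisons between cultures cannot be made within such blocks. The fit of only the groups compared was not run for the averaged difference or the difference between cultures, which use all groups. In the 3 shallow Th17 libraries the lowest member count was 9 to 34, which limits the precision of such genes there.

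For KO against WT in Th1, the genes called (562) came to 317 with DESeq2, 1074 with limma-voom, 110 after thinning, 922 with only the groups compared and 260 to 679 without single libraries. The members called (18) came to 11, 33, 2 and 29 in the same order, 9 with library totals and 5 to 21 without single libraries. In Th17, the genes called (711) came to 463 with limma-voom, 222 after thinning, 319 without the shallow libraries, 356 with only the groups compared and 411 to 713 without single libraries. The members called (18) came to 8, 4, 7 and 4 in the same order and 5 to 15 without single libraries, and their median was -0.18 without the shallow libraries. Between cultures, thinning left 2505 genes called in WT (5738) and 2629 in KO (6534), and the members' median in KO (-0.59) was -0.66 with library totals and -0.57 to -0.65 without single libraries. For the averaged difference thinning left 333 genes (1198) and 15 members (35). For the difference between cultures, 72 genes became 207 with no low-count filter, 25 after thinning, 128 with library totals and 38 to 108 without single libraries, and members 0 to 1. Its median over the members (-0.03) was 0.02 after thinning, -0.09 with library totals and 0.02 to -0.08 without single libraries. Thinning tests fewer reads, and for the other changes the cause was not tested.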
